A study of Mus musculus with 12 samples.

Results

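Acmsd and Aadat encode enzymes that draw tryptophan breakdown away from its main route to NAD at separate branch points. They are 2 of the 736 rows, each named by a gene symbol, in a table of normalized nCounter signal, and were taken by name. nCounter reads target molecules one by one through barcoded probes, with no amplification step, and was used here on total RNA with a panel of metabolic genes. The 12 libraries came from 12 male mice of C57BL6-NJ background in 4 groups of 3, and the study models early metabolic dysfunction-associated steatohepatitis (MASH), a fatty liver disease with inflammation. Wild-type mice and mice with a constitutive knockout of sphingosine kinase 2 (SphK2), which makes sphingosine-1-phosphate from sphingosine, were given normal water with control diet or sugar water with Western diet. The genotypes are labelled WT and SphK2 KO and the diets CDNW and WDSW. Labelled ages were 231 to 232 days in control-diet wild-type, 226 to 232 in Western-diet wild-type, 250 to 259 in control-diet knockout and 217 to 252 in Western-diet knockout mice. The growth protocol gives 16 weeks of diet for all mice. The labels instead rise steadily from 16 to 27 weeks in the order of the samples, whatever their group. The series asks how diet and SphK2 loss alter metabolic gene expression in this model.

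In liver, most tryptophan that is not used for protein enters the kynurenine pathway. Its later steps yield aminocarboxymuconate semialdehyde, which closes without an enzyme to quinolinate, the precursor of NAD. Acmsd, aminocarboxymuconate semialdehyde decarboxylase, removes this intermediate and so turns the flow away from NAD towards oxidation. Aadat, kynurenine aminotransferase II, acts earlier: it transaminates kynurenine to kynurenic acid, and it also transaminates 2-aminoadipate in lysine breakdown.

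Acmsd and Aadat lie in the first 111 rows, from A2m to Cat, where names fit the levels of a liver sample. Further down they often do not: for example, the row named Cps1, an abundant liver enzyme, was at 21, the lowest value listed, in all 12 libraries, and that named Ttr in 7. A row after Cat is therefore given as "the row named" so, without its gene's role. The labels name no tissue. Of 15 hepatocyte markers 11 had a row from A2m to Cat, and all 11 were abundant, from a mean of 6260 for Apoc2 to 89078 for Apoa2. Of 18 immune markers 3 had a row there: Blk was at 21 in all libraries, and Btk and Alox5 in 4 each. No row was named Sphk2, so genotypes are those of the labels. Libraries held 1138914 (Western-diet wild-type replicate 3) to 1924846 counts, recovered from the steps between values. On the first principal component of 513 other rows (66.3% of the variance) the knockout libraries lay at 5.62 to 10.1, except replicates 2 on control diet (-4.96) and on Western diet (-2.11). The wild-type libraries lay at -7.87 to -3.87, except control-diet replicate 2 (1.78). The fold changes of Acmsd and Aadat are given with and without these libraries.

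Acmsd was lower in SphK2 knockout than in wild-type mice on Western diet, with the groups fully apart, but the difference did not pass the test over all rows. The normalized signal was 339, 308 and 435 in the 3 wild-type mice and 68.3, 91.4 and 121 in the 3 knockout mice. The lowest wild-type value was thus well above the highest knockout value. Group means were 361 ± 65.9 and 93.6 ± 26.5 (SD, n = 3 each). The fitted level was 3.88 times lower in knockout mice, a log2 fold change of -1.96 ± 0.50 (SE, 95% interval -3.09 to -0.83), and limma's adjusted p over 736 rows was 0.10. By this test 1 of 736 rows (0.136%) passed in this comparison, and 20.9% had an unadjusted p under 0.05. The groups did not overlap in 23.5% of rows, so the separation of Acmsd alone was not rare in this table. Acmsd stood 27th of 736 by p and 6th by size of fold change. With adjustment over those first 111 rows only, a restriction chosen with these data known, its p was 0.0509 from the fit of all rows and 0.0484 when those rows were fitted alone. Of the 111 rows 6 passed in the former and 8 in the latter. In these bulk samples, fewer cells that express a gene and less of its RNA per cell cannot be told apart. The summed signal of the 11 hepatocyte markers was 458954 to 548056 in Western-diet knockout and 467883 to 526075 in Western-diet wild-type mice, ranges that overlap. That of the 3 immune markers was 63 to 115 and 63 to 81.1, where 63 means that all 3 were at the floor.

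**Figure D1:**
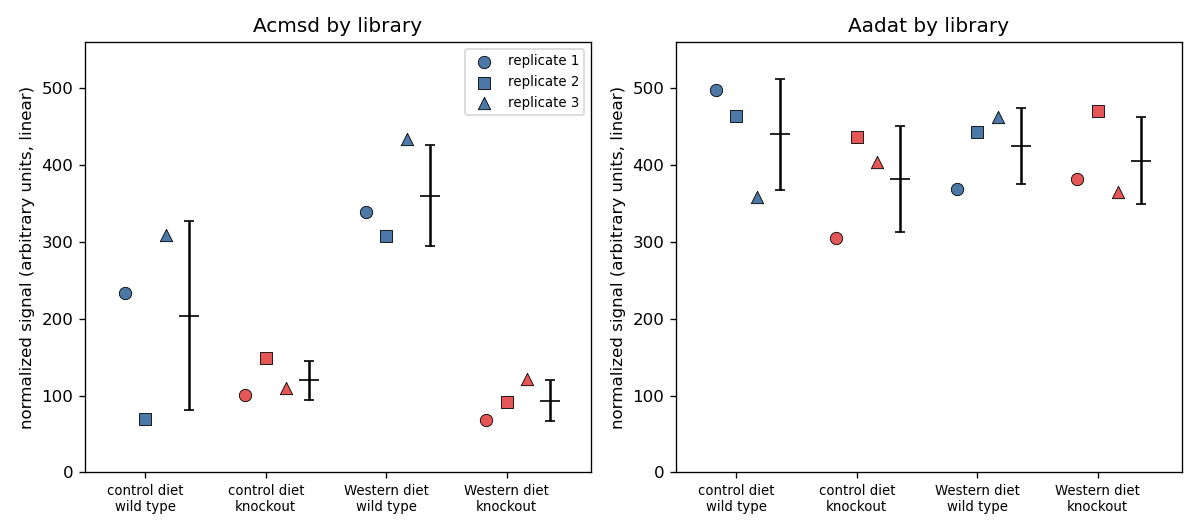
Normalized signal of Acmsd (left) and Aadat (right) in each library, on linear axes from 0; shapes are replicates, blue is wild type, red is knockout, and bars are the group mean ± SD (n = 3). Acmsd was 308 to 435 in Western-diet wild-type and 68.3 to 121 in Western-diet knockout mice, whereas Aadat lay between 305 and 498 in all libraries.

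Counting error was small beside this gap. The lowest Acmsd value, 68.3 in Western-diet knockout replicate 1, stood on 68 recovered counts, with an exact 95% Poisson interval of 53.1 to 86.6 in units of the signal. The lowest Western-diet wild-type value, 308, stood on 323 counts (276 to 344). These intervals cover counting error only, and the spread between the 3 mice of a group was larger. Within its own library, Acmsd stood above 57.9% to 63.5% of rows in Western-diet wild-type mice and above 33.0% to 40.5% in Western-diet knockout mice.

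On control diet the genotypes overlapped for Acmsd, and 1 wild-type library decided this. Acmsd was 233, 69.2 and 310 in wild-type replicates 1, 2 and 3 and 101, 149 and 111 in knockout replicates 1, 2 and 3. Wild-type replicate 2 was the second lowest of all 12 libraries, and knockout replicate 2 was the highest of the 6 knockout libraries. The means were 204 ± 123 in wild-type and 120 ± 25.3 in knockout mice (SD, n = 3 each). The log2 fold change was -0.53 ± 0.50 (limma, adjusted p = 0.689; 0 of 736 rows or 0% passed, and 4.76% had an unadjusted p under 0.05). It was -1.18 without wild-type replicate 2 (adjusted p = 0.390), -0.10 without wild-type replicate 3 and -1.34 without both replicates 2 (adjusted p = 0.0671, with 3.53% of all rows called). Those replicates also lay nearer the other genotype on the first principal component. They were left out because of values seen, so these are not independent tests. Without these and Western-diet knockout replicate 2, the third library apart on that component, Acmsd passed in all 3 genotype contrasts (limma, adjusted p = 0.0387 on control diet, 0.00925 on Western diet and 0.00347 averaged). That fit called 18.3%, 23.6% and 34% of the 736 rows in these contrasts, so passing there was not particular to Acmsd. By the labels all control-diet knockout mice were older than all control-diet wild-type mice, so age and genotype cannot be told apart on this diet. With age as a covariate the log2 fold change of Acmsd was -0.93 ± 0.71.

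Averaged over both diets, Acmsd had a log2 fold change of -1.24 ± 0.35 (limma, adjusted p = 0.149) between knockout and wild-type mice, where 0 of 736 rows (0%) passed and 25.5% had an unadjusted p under 0.05. Its signal was 69.2 to 435 with a median of 309 in the 6 wild-type mice and 68.3 to 149 with a median of 106 in the 6 knockout mice. The other 5 wild-type mice, at 233 or more, lay above all 6 knockout mice. Without control-diet wild-type replicate 2 the log2 fold change was -1.57 (adjusted p = 0.00968), and without both control-diet replicates 2 it was -1.65 (adjusted p = 0.00504). These fits called 2.72% and 21.1% of all rows for this contrast. The Western-diet comparison holds neither of these libraries, and there the fold change stayed at -1.96 while the pooled error shrank (adjusted p = 0.0153 and 0.0118, with 2.85% and 5.03% of all rows called). Those libraries were left out because of values seen, so the smaller error is no independent support. With any 1 of the other 11 libraries left out, the Western-diet comparison did not pass (adjusted p = 0.0957 to 0.326). With only the 2 Western-diet groups fitted, Acmsd did not pass either (limma, adjusted p = 0.0685, with 0 of 736 rows called).

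The diet comparisons of Acmsd were in opposite directions in the 2 genotypes, and neither passed. In wild-type mice the mean was 361 on Western and 204 on control diet, a log2 fold change of 1.05 ± 0.50 (limma, adjusted p = 0.803; 0% of rows passed, 6.66% at an unadjusted p under 0.05). These groups touched: the highest control-diet value, 310, was above the lowest Western-diet value, 308. Without control-diet wild-type replicate 2 the log2 fold change was 0.41. In knockout mice the mean was 93.6 on Western and 120 on control diet, a log2 fold change of -0.37 ± 0.50 (adjusted p = 1; 0% of rows passed, 2.31% unadjusted), again with overlap. It was -0.21 without control-diet knockout replicate 2, and leaving out any 1 library gave -0.57 to -0.17. Averaged over genotypes, the diet comparison gave 0.34 ± 0.35 (adjusted p = 1; 0% passed, 2.45% unadjusted), and 0.018 without control-diet wild-type replicate 2. The interaction, which tests whether the genotype difference itself differs between diets, was -1.43 ± 0.70 (limma, adjusted p = 0.861; 0% passed, 5.98% unadjusted). It was -0.78 without control-diet wild-type replicate 2. With replicate 2 of the control-diet knockout group left out as well, it was -0.62. A difference between the diets in the effect of genotype was thus not shown.

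**Figure D2:**
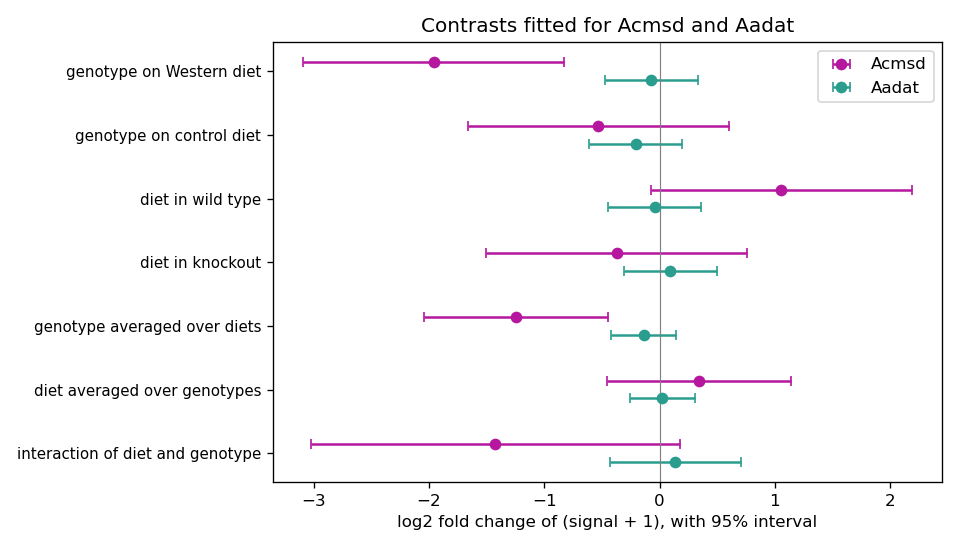
Log2 fold change of Acmsd and Aadat (signal + 1) in each of the 7 contrasts, with limma's 95% intervals before adjustment; genotype contrasts are knockout minus wild type, diet contrasts Western minus control, and the interaction is the genotype difference on Western minus that on control diet. The interval of Acmsd lies below 0 for genotype on Western diet (-3.09 to -0.83) and averaged over diets (-2.04 to -0.44), and all intervals of Aadat include 0.

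Aadat varied far less than Acmsd. Over the 12 libraries it ranged 1.63-fold, from 305 to 498 (mean 414 ± 57.9, SD, n = 12), against 6.36-fold for Acmsd. On Western diet Aadat was 369, 444 and 463 in wild-type and 382, 471 and 365 in knockout mice, so the groups overlapped. The log2 fold change was -0.07 ± 0.18 (limma, adjusted p = 0.905). The knockout to wild-type ratio was 0.953 with a 95% interval of 0.721 to 1.26. The interval of the same ratio for Acmsd was 0.118 to 0.564 around 0.258, wholly below that of Aadat. The difference between the genes was itself not tested.

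On control diet Aadat was 498, 464 and 359 in wild-type and 305, 437 and 405 in knockout mice, again with overlap. The means were 440 ± 72.4 and 382 ± 69.0 (SD, n = 3 each), and the log2 fold change was -0.21 ± 0.18 (limma, adjusted p = 0.681). Leaving out any 1 library gave -0.35 to -0.05. Age as a covariate gave -0.0087 ± 0.24, but age and genotype cannot be told apart on this diet. Averaged over diets, the genotype difference was -0.14 ± 0.13 (adjusted p = 0.496). The diet differences were -0.04 ± 0.18 in wild-type and 0.09 ± 0.18 in knockout mice, the average over genotypes 0.03 ± 0.13 and the interaction 0.14 ± 0.25 (adjusted p = 1 each). The sign of each of these 4, and that of genotype on Western diet, turned under some of the alternatives tried. Without the 3 libraries apart on the first component, the genotype differences of Aadat were -0.18 on Western diet, -0.27 on control diet and -0.22 averaged. The diet differences were then 0.0022 in wild-type mice, 0.09 in knockout mice and 0.04 averaged, and the interaction was 0.09. In no pair of groups did the values of Aadat separate.

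The library scaling factor cancels in the ratio of the 2 signals, which compares how the genes varied and not their absolute levels, since probes differ in efficiency. On Western diet the Acmsd signal per 100 of Aadat was 91.8, 69.5 and 93.8 in wild-type and 17.9, 19.4 and 33.2 in knockout mice. On control diet it was 46.8, 14.9 and 86.3 in wild-type and 33.0, 34.0 and 27.3 in knockout mice. The Western-diet groups were apart, and the control-diet groups overlapped because wild-type replicate 2 had the lowest ratio of all 12 libraries. The mean log2 ratio on Western diet was -2.15 ± 0.48 in knockout and -0.25 ± 0.24 in wild-type mice (SD, n = 3 each), a difference of -1.90. On control diet the means were -1.68 ± 0.17 and -1.35 ± 1.28, and the latter was -0.65 over the 2 wild-type mice without replicate 2. The ratio was not tested, since both genes were chosen with results of these data known.

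**Figure D3:**
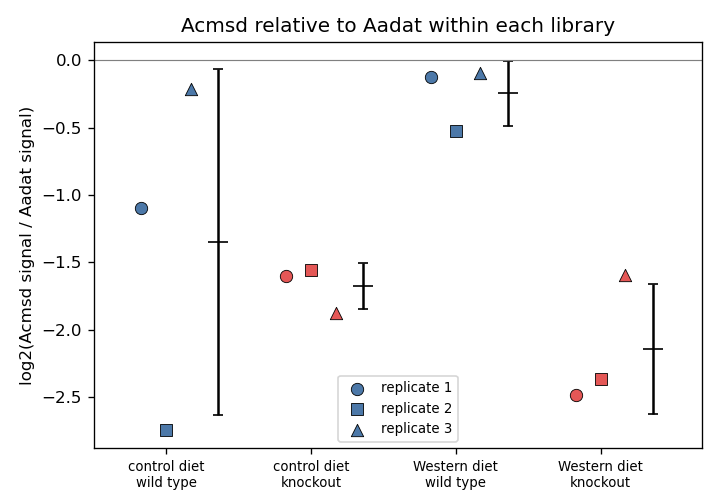
Log2 of the Acmsd signal over the Aadat signal within each library; shapes are replicates, blue is wild type, red is knockout, and bars are the group mean ± SD (n = 3). Western-diet wild-type libraries lie between -0.53 and -0.09 and Western-diet knockout libraries between -2.48 and -1.59, while control-diet wild-type replicate 2 lies lowest at -2.74.

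No correlation between Acmsd and Aadat over mice passed its test. Over 12 mice Pearson's r of the log2 signals was 0.12 (permutation p = 0.701) and Spearman's rho -0.06 (permutation p = 0.867). Without the 2 libraries farthest from the median of Acmsd, both of Western-diet wild-type mice, r was 0.11. Within the 6 wild-type mice r was -0.33 and rho -0.54 (exact permutation p = 0.599 and 0.297), and within the 6 knockout mice r was 0.13 and rho 0.03 (exact permutation p = 0.815 and 1). Without the 2 farthest libraries r was -0.84 over 4 wild-type and -0.34 over 4 knockout mice. All tests were two-sided, and Benjamini-Hochberg adjustment over these 3 Pearson correlations gave p = 0.815 for each.

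The rows most like Acmsd were ranked by Pearson's r of log2 signal over the 12 libraries, among 80 rows from A2m to Cat that were above 21 throughout. The points share groups and library scaling, so the values describe likeness and carry no p. First was Atf4, which drives transcription in the integrated stress response, with r = 0.96. It was followed by Apom, a carrier protein of sphingosine-1-phosphate in plasma (0.92), and Amdhd1, an enzyme of histidine breakdown (0.90). Adh4, an alcohol dehydrogenase (0.89), and Ass1, the argininosuccinate synthase of the urea cycle (0.86), came next. Aadat stood 38th of these 80. Over all 537 rows above 21 throughout, Atf4 stood 2nd and Apom 5th. Without both control-diet replicates 2 the r of the 5 rows named above, Atf4 to Ass1, was 0.88 to 0.95. Within the 6 wild-type mice the r of Atf4 with Acmsd was 0.99, of Apom 0.86, of Amdhd1 0.91, of Adh4 0.84 and of Ass1 0.98. Within the 6 knockout mice, where Acmsd spans a narrower range, the r of Atf4 was 0.54, of Apom 0.72, of Amdhd1 0.81, of Adh4 0.45 and of Ass1 0.22. Like Acmsd, Atf4 was lower in knockout than in wild-type mice on Western diet (1083 ± 71.2 and 1612 ± 74.9, SD, n = 3 each) and overlapped on control diet, where it was 1202 to 1243 and 992 to 1493. Its Western-diet log2 fold change of -0.57 ± 0.14 (limma, adjusted p = 0.0861) was smaller than that of Acmsd. Atf4 was picked by its r to Acmsd over these same libraries. A group pattern like that of Acmsd is therefore built into the choice, and neither it nor this p is separate support.

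Among 80 rows from A2m to Cat chosen in the same way, those most like Aadat were less like it. The highest r there was 0.68, for Atf7ip, a chromatin protein, followed by Acy1, an aminoacylase (0.67). Over all 537 rows above 21 throughout, Atf7ip stood 6th and Acy1 10th. Afmid, the kynurenine formamidase that makes kynurenine and so supplies the substrate of Aadat, also had 0.67. Akr1c6, a steroid dehydrogenase, had 0.62 and Apoc3, an apolipoprotein, 0.60. Without both control-diet replicates 2 the r of these 5 was 0.59 to 0.70. The r of Afmid was 0.36 within the 6 wild-type and 0.76 within the 6 knockout mice.

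**Figure D4:**
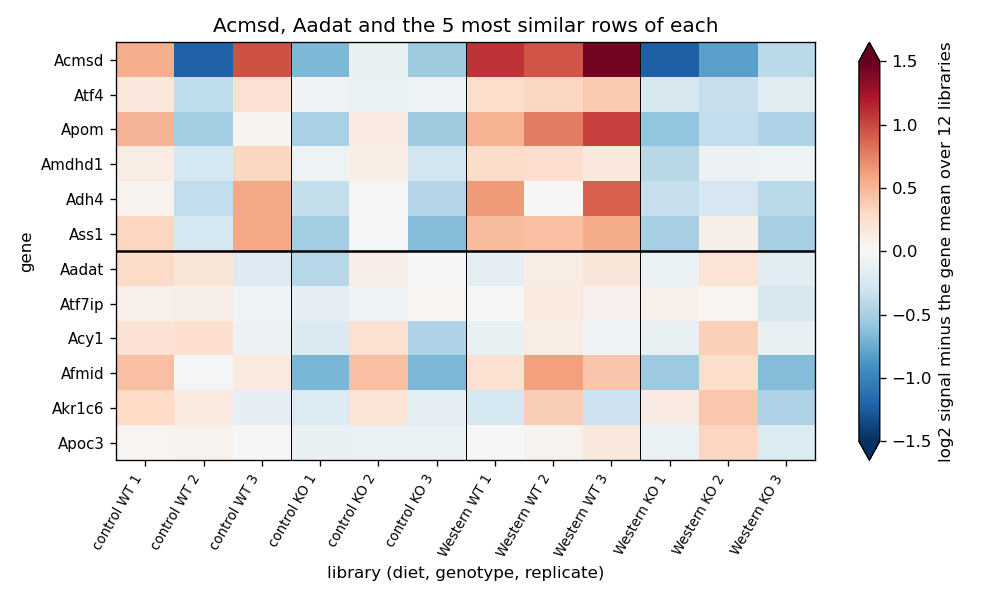
Log2 signal minus the gene's mean over 12 libraries (colour scale) for Acmsd and Aadat and, under each, the 5 rows from A2m to Cat with the highest Pearson's r to it; columns are libraries by diet, genotype (WT, KO) and replicate. Acmsd and its 5 rows are low together in control-diet wild-type replicate 2 and high in most other wild-type libraries, and Afmid is low in the knockout libraries other than both replicates 2.

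Other genes of tryptophan, kynurenine, lysine and NAD metabolism were described by a list of 38 names, of which 17 had a row. All of these but Afmid and Aox1 lay after Cat, so counts and medians over the 17 describe rows by name only. None of the 17 passed limma's test over all rows in any of the 7 contrasts. At an unadjusted p under 0.05 there were 6 for genotype averaged over diets, 4 higher and 2 lower, where 25.5% of all rows did, and 0 in each contrast but this and genotype on Western diet. For genotype on Western diet 3 of the 17 had an unadjusted p under 0.05, 2 higher and 1 lower in knockout mice, where 20.9% of all rows did. The median log2 fold change of the 17 was 0.11, against 0.03 over 736 rows. For Afmid and Aox1, which stood from A2m to Cat, the median for genotype on Western diet was -0.29, against 0.0045 over the 111 rows there. On Western diet Afmid had 785 ± 291 in the knockout and 1256 ± 172 in the wild type (SD, n = 3 each), with a log2 fold change of -0.73 ± 0.34 (limma, adjusted p = 0.270), and on control diet 815 ± 402 and 1077 ± 182. In both knockout groups replicate 2, which lay apart on the first principal component, had the highest Afmid (1279 on control and 1121 on Western diet). Aox1, an aldehyde oxidase that also oxidises methylated nicotinamide, had 1095 ± 157 and 1003 ± 208 on Western diet (0.14 ± 0.19, adjusted p = 0.736).

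The 15 rows after Cat of this list are given by the names they carry. For genotype on Western diet, those named Ido1 (log2 fold change 0.23 ± 0.10), Slc3a2 (0.47 ± 0.18) and Tph1 (-0.66 ± 0.28) had the 3 unadjusted p under 0.05, and their adjusted p was 0.220, 0.194 and 0.220 (limma). Those named Tdo2 (0.17 ± 0.17), Ido2 (-0.29 ± 0.20), Haao (-0.16 ± 0.14), Kynu (-0.02 ± 0.05), Got2 (0.11 ± 0.08), Nadk (0.82 ± 0.48), Nadk2 (0.63 ± 0.34), Ddc (0.42 ± 0.21) and Gcdh (0.26 ± 0.19) did not pass either. Those named Kmo, Slc7a5 and Il4i1 were at 21 in 11, 10 and 9 of 12 libraries. The kynurenine pathway between Afmid and Acmsd was therefore not followed here by rows whose names could be relied on.

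A second list held 23 names of other amino acid enzymes, of which 10 had a row, all from A2m to Cat. Every name on it begins with A or B, so it does not stand for amino acid enzymes at large. None of the 10 passed over all rows in any contrast. For genotype on Western diet 7 of the 10 had an unadjusted p under 0.05, 6 lower and 1 higher in knockout mice, and the median log2 fold change of the 10 was -0.52. Over 736 rows 20.9% had such a p and the median was 0.03, and over the 111 rows from A2m to Cat 29.7% did and the median was 0.0045. The lower ones with the smallest p were Asns, asparagine synthetase, Ass1 (-0.80 ± 0.25), Bhmt2, a homocysteine methyltransferase (-0.41 ± 0.14), Asl, argininosuccinate lyase (-0.99 ± 0.36), and Arg1, arginase (-0.64 ± 0.27). Agxt2, a mitochondrial alanine-glyoxylate aminotransferase, had 0.52 ± 0.17. Their adjusted p was 0.133 to 0.220 (limma). In the Western-diet knockout all libraries list Asns at 21, so no fold change is given for it. Beside these, the Western-diet difference of Acmsd (-1.96) was in the direction of the 6 lower rows and that of Aadat (-0.07) was close to 0.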

How the data were processed

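Per the labels' protocols, Trizol-extracted total RNA was bound to barcoded probes of a metabolic panel. For each of 12 libraries the authors deposited a normalized signal of 736 rows, and its software, reference genes and background step are not stated in the labels. Between 21 and 3000 the values of a library were multiples of 1 step (100% whole to within 0.1), from which counts were recovered. The lowest value listed is 21. In the 4 libraries where 1 count is worth over 1, the next is 21 counts, so signals above 21 from fewer counts are also listed at 21. In Western-diet wild-type replicate 3, 21 counts are a signal of 31.6. Both Acmsd and Aadat were above 21 in all libraries.

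The test was limma 3.58.1 (R 4.3.3; lmFit, eBayes) on log2(value + 1), with 4 group means over 12 libraries and 8 residual degrees of freedom, in 7 contrasts, with Benjamini-Hochberg adjustment over 736 rows and a threshold of 0.05. Fold changes are on this log2 scale. On simulated data for genotype on Western diet, 200 of 736 rows were changed and noise was drawn separately for each row. There the fit recovered 59.2%, 86.2% and 97.0% of rows changed by 0.5, 1 and 2 (log2), with 3.97% false calls. The real rows vary together along the first principal component, which the simulation lacks, so these shares do not give the power in these data. The replicates are separate mice as far as titles and ages tell, numbered in the order of the samples, and p-values measure the spread between them. Permutation tests used 100000 resamples, or all orders for 6 mice. Named genes were both members, the lists with a row, the 5 rows of highest r to each member, and up to 6 amino acid genes by p. Members and lists were chosen with earlier results of these data known. Alternatives covered scaling, pseudocount, low rows, variance prior, array weights, age, samples and rows in the fit, and each library left out, and 3 were added after the data were seen.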

Additional observations from a re-analysis of the deposited data

How the results depend on the processing

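No alternative took the Western-diet genotype difference of Acmsd, its average over diets, its control-diet difference or the diet difference in wild-type mice through 0. Of 330 alternative values of Acmsd and Aadat over 7 contrasts, 299 kept their direction and their side of the threshold, 12 came to pass it and 19 changed sign. Values are log2 fold changes unless said otherwise. For genotype on Western diet, Acmsd passed with array weights (-2.26), with weights from rows above 21 in at least 3 libraries (-2.26), with the rows from A2m to Cat fitted alone (-1.96), without control-diet replicate 2 of both genotypes (-1.96) and without the 3 libraries apart on the first component (-1.96). The weighted fits called 326 and 331 of 736 rows and that without the 3 libraries 174, so passing there was not particular to Acmsd. The rows from A2m to Cat alone gave 8 of 111, and leaving out both control-diet replicates 2 gave 37 of 736. Leaving out each library gave -2.16 to -1.75. Averaged over diets, Acmsd passed with array weights (-1.57, and -1.57 with the other weights), without both control-diet replicates 2 (-1.65) and without the 3 libraries (-1.65), and leaving out each library gave -1.57 to -1.03. For this contrast 21.1% of rows were called without both replicates 2, 34% without the 3 libraries and more with either set of weights. On control diet Acmsd passed without the 3 libraries (-1.34), where 18.3% of rows were called. The weights, 0.220 to 7.45 per library over all rows and 0.214 to 8.16 from rows above 21 in at least 3 libraries, come from estimates that did not converge. With library medians centred, the Western-diet value was -2.12 (adjusted p = 0.0731, limma). With age as a covariate, Acmsd turned to 0.050 for diet in knockout mice. Aadat turned to 0.0022 for diet in wild-type mice without both control-diet replicates 2 and without the 3 libraries. With age it turned to -0.11 for diet in knockout mice, -0.093 for diet averaged and -0.044 for the interaction, and with either set of weights to -0.10 for diet averaged. Leaving out each library gave Aadat -0.18 to 0.0015 for genotype on Western diet, -0.35 to -0.05 on control diet, -0.21 to -0.06 averaged, -0.18 to 0.056 for diet in wild-type mice, -0.061 to 0.20 for diet in knockout mice, -0.052 to 0.078 for diet averaged and -0.018 to 0.28 for the interaction. The log2 ratio on control diet ran from -1.02 to 0.24, the latter without wild-type replicate 3. The correlation of the 2 genes was 0.39 with medians centred.

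The count of rows called for genotype on Western diet, 1 of 736, was 0 with medians centred, with rows above 21 in at least 3 libraries, with age and with only the 2 groups compared. It was 8 with the 111 rows fitted alone, 6 with the p of all rows adjusted over them, 37 without both control-diet replicates 2, 174 without the 3 libraries, 326 with array weights, 331 with the other weights and 0 to 21 without each library. The counts without both replicates 2, without the 3 libraries, with weights and with the other weights were 26, 135, 195 and 208 for genotype on control diet (0 to 3 without each library) and 155, 250, 371 and 379 for genotype averaged (0 to 132). With weights and with the other weights they were 1 and 1 for diet in wild-type mice (0 to 1 without each library), 26 and 42 for diet in knockout mice, 3 and 3 for diet averaged, and 19 and 20 for the interaction (0 to 1). Age gave 2 for diet in knockout mice. The cause of these shifts was not tested. A count model (edgeR) was planned and not run, since the counts behind values listed at 21 are not known. No paired analysis was run, since the groups are separate mice as far as titles and ages tell and the labels name no pairs.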
